A study of Mus musculus with 46 samples.

Results

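The comparison set 11 mouse ovarian follicles frozen 8 h after human chorionic gonadotropin (hCG) was added against 9 follicles frozen at 0 h, 20 of the 46 single-follicle libraries of the series. Members were chosen by the time given in the sample titles, with no use of measured values. All follicles came from CD-1 mice and had grown singly for 8 days in alginate with recombinant follicle-stimulating hormone. The 8 h follicles then spent their last hours in maturation medium with 1.5 IU/ml hCG, 10 ng/ml EGF, 10 mIU/ml recombinant follicle-stimulating hormone and 10% serum, and the 0 h follicles were taken at the start of that step. No group kept for 8 h without hCG is among these samples, so hCG, EGF, serum and hours in the new medium cannot be told apart. Every 8 h library is of batch 1 and every 0 h library is of batch 2. A direct difference of the groups therefore holds time and batch together, and the change was linked through the 26 follicles at 1 h and 4 h, of which 20 are of batch 1 and 6 of batch 2, in a model with terms for time and batch.

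hCG acts on the luteinizing hormone receptor and stands in for the surge that starts ovulation. In mural granulosa cells it raises cyclic AMP and releases EGF-like ligands, which carry the signal to the cumulus cells around the oocyte. The cumulus lays down a hyaluronan matrix, meiosis resumes, the follicle wall is opened by proteases, and the granulosa cells stop dividing, give up estrogen synthesis and turn to progesterone as they luteinize.

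Total counts ran from 714844 to 2667129 at 8 h, against 1633566 to 5185044 at 0 h. The 9423 of 25147 genes with no count in all 6 batch 2 libraries at 1 h and 4 h were left out, because no library links them between the batches. They held at most 0.0521% of the counts of any 8 h library, against shares between 22.6% and 46.2% in the follicles at 0 h. Without them the totals were 714497 to 2666282 at 8 h, against 1264015 to 3202501 at 0 h, and 8835 genes passed the filter on low counts and were tested. Mitochondrially encoded transcripts made up 9.78% ± 0.848 of counts at 8 h (SD, n = 11), against 10.3% ± 1.25 at 0 h (SD, n = 9). The counts had been adjusted for batch by the authors before deposit, so they are not reads as sequenced. Each library is 1 follicle, the labels do not say which follicles shared an animal, and p-values measure the spread between follicles. Of 136 named genes with annotation, 30 share exon bases with a gene on the opposite strand, and these libraries keep no strand, so reads of the pair cannot be told apart. All levels below are CPM (counts per 1e+06 counts) with library sizes over the tested genes scaled by TMM. Log2 fold changes are 8 h over 0 h from the linked model. The value after ± for a log2 change is its size over the square root of the F statistic, an approximate standard error. Calls rest on edgeR's quasi-likelihood test with Benjamini-Hochberg adjusted p below 0.05.

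At 8 h, 1914 genes (21.7% of those tested) were called higher and 2110 (23.9%) lower than at 0 h, and 4811 were not called. Of the higher genes, 486 had changed 4-fold or more, as had 764 of the lower ones. The CPM ranges of the 2 groups did not overlap for 805 genes that lay higher at 8 h (9.11%) and for 980 that lay lower (11.1%). The median log2 fold change over all tested genes was -0.03. On log2(TPM + 1) values tested with limma, 3375 genes were higher and 1579 lower of 10923, so that rises made up 68.1% of the calls, against 47.6% in the count model, and the median shifted to 0.34. Other settings moved the balance the other way. Rises made up 38.8% of calls with the left-out genes kept in, 42.1% with RLE size factors and 42.5% with DESeq2. With every library thinned to the depth of the smallest, 326 genes were higher and 241 lower of the 4052 still tested. Among the higher genes 181 had their fitted maximum at 1 h, 600 at 4 h and 1133 at 8 h. Among the lower genes 207 had their fitted minimum at 1 h, 709 at 4 h and 1194 at 8 h. These genes were chosen by their call at 8 h, which favours an extreme at that time. Over all 8835 tested genes the fitted maximum was at 8 h for 2025. Between 4 h and 8 h, 978 of the higher genes were not called, 612 rose and 324 fell. Of the lower genes 1241 were not called, 648 fell and 221 rose. For comparison, 2357 genes (26.7%) were higher and 2450 (27.7%) lower at 4 h than at 0 h, and 1241 (14.0%) were higher and 1715 (19.4%) lower at 1 h than at 0 h. These comparisons share the 0 h follicles. Against 4 h, the 8 h follicles had 1626 genes higher (18.4%) and 1956 lower (22.1%), and against 1 h they had 2274 higher (25.7%) and 2073 lower (23.5%).

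The linked change is a sum of 2 steps, one inside each batch, and it can be taken through 1 h or through 4 h. Of the 1914 higher and 2110 lower genes, 1769 and 1953 could be fitted by both routes and had the same sign by both. How many could be fitted by both is not given here. The linked change draws on both routes, so calling genes by it partly fixed this agreement. The 2 routes differed significantly for 398 genes (4.50%), by edgeR's quasi-likelihood test of the interaction of time and batch in the 26 linking follicles. In batch 1 the 8 h and 1 h follicles were on plate 1 and the 4 h follicles on plate 2. The step from 4 h to 8 h therefore also crosses plates. Changes of single genes over that step are from the main model. Counts of list members for that step are given below with a term for the 3 library sets beside the main ones. Over all 8835 genes that term left 559 (6.33%) higher and 857 (9.70%) lower at 8 h than at 4 h, and 1501 (17.0%) higher and 1989 (22.5%) lower at 8 h than at 0 h. Through 1 h alone 1251 of 8139 genes were higher (15.4%) and 2038 lower (25.0%) at 8 h than at 0 h, and through 4 h alone 1488 of 8972 were higher (16.6%) and 1652 lower (18.4%). List counts under these settings are read against those shares, and list counts of the main model against 21.7% higher and 23.9% lower. The lists were chosen with earlier results of these data known, so their counts are description, and no set was tested.

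The 12 genes with the largest rises include a secreted phosphoprotein, a protease inhibitor, matrix and cell surface proteins and growth factor ligands. In the sentences that follow, 3 levels in a row are the lowest, the median and the highest follicle of a group. Spp1 (chr5:104435118-104441050, GRCm38), which encodes osteopontin, had 2859.7, 4801 and 8151 CPM at 8 h, against 0, 0.311 and 4.94 CPM at 0 h. Its ranges lay far apart, and its log2 fold change of 12.34 ± 0.80 (adjusted p = 3.15e-17) was the largest of any gene named here. Spp1 was also late: the median follicle had 3.18 CPM at 1 h and 56 CPM at 4 h. Sdc1, a heparan sulfate proteoglycan of the cell surface, had 2876, 4078 and 5751 CPM at 8 h, against 11.6, 17.5 and 37.9 CPM at 0 h (7.71 ± 0.35, adjusted p = 4.77e-23). Nupr1, a stress-inducible chromatin protein, had 339, 1199 and 1741 CPM at 8 h, against 0, 3.86 and 4.94 CPM at 0 h (8.26 ± 0.56). Neither gene overlapped between the groups, and Sdc1 was 1 of the genes still higher at 8 h than at 4 h (2.25 ± 0.21, adjusted p = 2.57e-12).

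Serpinb2, an inhibitor of plasminogen activators, had 18.9, 134 and 687 CPM at 8 h and not a single count at 0 h. Set directly against a floor of 3 counts over the 9 follicles at 0 h it was at least 1381-fold higher at 8 h, a bound on time and batch together that covers counting error only. The linked log2 fold change was 11.01 ± 1.20, a value that depends on the prior count, and through 1 h alone, where the median follicle held no count, it was 7.57 and the call was lost (adjusted p = 1). Sult1e1, the sulfotransferase that inactivates estrogens, had 34.9, 713 and 3571 CPM at 8 h, against 0, 0 and 2.24 CPM at 0 h (10.52 ± 1.46, adjusted p = 6.91e-08). Every 8 h follicle lay above every 0 h follicle, though the 8 h follicles spread widely and their median was below the 3469 CPM of 4 h. Ier3, a stress response gene of the immediate early class, had 565, 784 and 965 CPM at 8 h, against 0, 1.12 and 3.48 CPM at 0 h (8.68 ± 0.52), and Hmga1, an architectural chromatin protein, had 602, 975 and 1363 CPM at 8 h, against 0, 1.5 and 5.06 CPM at 0 h (8.43 ± 0.60). For both the size depended on the linking time, with 9.66 through 1 h and 7.08 through 4 h for Ier3, and 9.90 and 6.91 for Hmga1.

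The 12 genes with the largest falls include a hormone subunit of the growing follicle, enzymes and transporters. Inhbb (chr1:119415465-119422248), the beta B subunit of inhibin and activin, had 1.49, 3.13 and 8.27 CPM at 8 h, against 568, 887 and 1388 CPM at 0 h, with a log2 fold change of -8.11 ± 0.67 (adjusted p = 5.14e-14). The level at 4 h was already low, with a median of 5.91 CPM, and it was not called different between 8 h and 4 h. Hsd11b2, which inactivates glucocorticoids, had 0, 0 and 1.63 CPM at 8 h, against 20.9, 104 and 149 CPM at 0 h (-7.79 ± 0.66). Cbs, which turns homocysteine into cystathionine, had 0.497, 1.47 and 2.76 CPM at 8 h, against 111, 239 and 305 CPM at 0 h (-7.34 ± 0.47). No follicle of either group crossed over for these genes, and both were lower at 8 h than at 4 h, with log2 changes of -3.70 ± 0.57 for Hsd11b2 and -2.09 ± 0.37 for Cbs (adjusted p = 6.72e-07 and 7.85e-06, edgeR). Car14, a carbonic anhydrase at the cell surface, had 2.87, 11.3 and 37.8 CPM at 8 h, against 567, 1622 and 2301 CPM at 0 h, and its log2 change from 4 h to 8 h was -3.98 ± 0.32. The glutamine transporter Slc38a5 (-6.21 ± 0.83), the GalNAc-4-sulfotransferase Chst8 (-6.22 ± 0.56), the serpin Serpina3a (-6.15 ± 0.80) and Fam13a (-7.19 ± 0.53) showed the same timing, each called lower at 8 h than at 4 h. Fam81a (-7.54 ± 0.69) and Kctd14 (-6.38 ± 0.91) had reached their low level by 4 h and were not called between 4 h and 8 h. Ccdc152 had a log2 fold change of -6.42 ± 0.94, with 9 counts in all 11 follicles at 8 h, and shares exon bases with Selenop on the other strand.

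**Figure D1:**
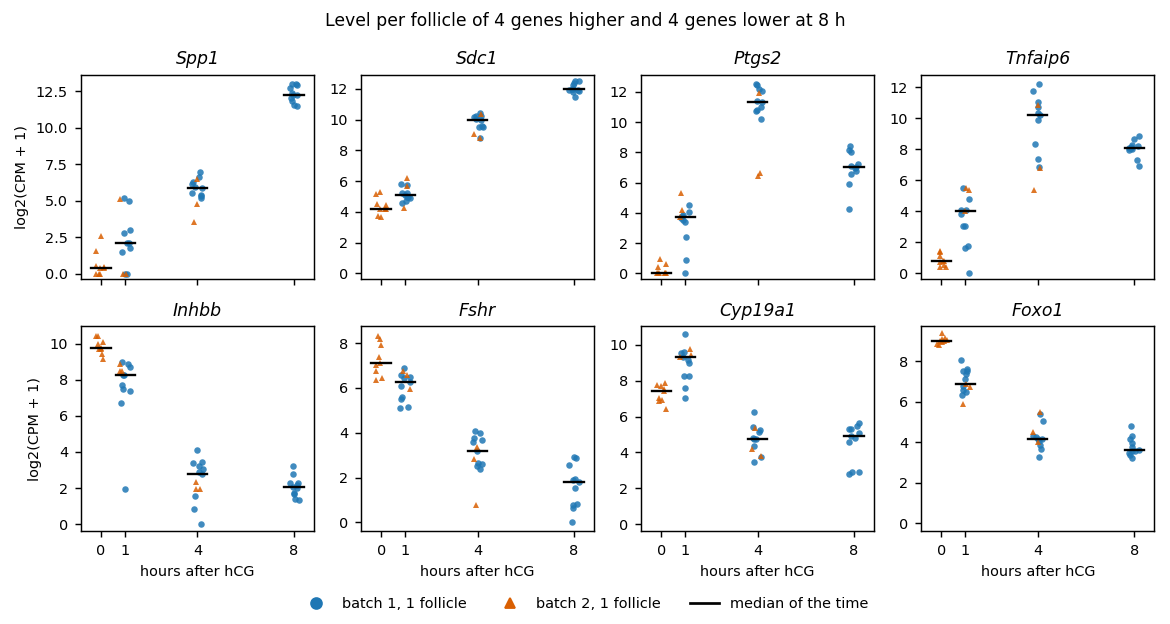
Level of 8 genes in every follicle, as log2(CPM + 1), by hours after hCG; circles are batch 1, triangles batch 2, and bars mark medians. Spp1 and Sdc1 stand highest at 8 h. Ptgs2 and Tnfaip6 have their highest medians at 4 h and remain above 0 h at 8 h. Inhbb, Fshr, Cyp19a1 and Foxo1 stand below 0 h in all 11 follicles at 8 h.

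Most immediate early transcription factors, which answer a stimulus without new protein synthesis, had come down from a peak at 1 h. The fitted peak was at 1 h for 18 tested members and at 4 h for 3. All 21 tested members had risen at 1 h. At 8 h, 8 of the 21 were still higher than at 0 h, 3 were lower and 10 were not called, and the median log2 fold change was 1.07, against 4.49 at 1 h. Between 1 h and 8 h 19 of the 21 fell and 2 rose. Fos had 1.54, 7.46 and 15 CPM at 8 h, against 25.8, 44.5 and 74.6 CPM at 0 h, and so had passed below its starting level in every follicle (-2.55 ± 0.53, adjusted p = 0.000117). Jun, its partner in AP-1, likewise stood below 0 h (-2.09 ± 0.40), as did Fosb (-3.63 ± 0.94), which had 3 counts in all 8 h follicles. The AP-1 member Fosl1 had 1.38, 5.01 and 12.1 CPM at 8 h, against 0, 0 and 0.386 CPM at 0 h. The direct ratio of summed counts per depth, which holds time and batch together, was 40.3 (95% interval 13.4 to 198) with counting error only, and the linked log2 fold change was 4.49 ± 0.71. Junb (3.52 ± 0.54), Egr3 (3.52 ± 0.46) and Nr4a1 (3.19 ± 0.77) were also still higher. Nr4a1 had 14, 48.5 and 1165 CPM at 8 h, against 0.549, 15 and 44.8 CPM at 0 h, so its groups overlapped and replicate 4 stood far above the other 8 h follicles. Without that follicle the change in Nr4a1 was 1.59 (adjusted p = 0.0114). Egr1 was not called (1.08 ± 0.46, adjusted p = 0.0508), but passed the threshold without 8 h replicate 4 (1.22, adjusted p = 0.0127), with the term for the 3 library sets (1.63, adjusted p = 0.0126) and through 1 h alone (1.55, adjusted p = 0.0288).

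EGF-like ligands and the feedback on ERK, the kinase they switch on, had 11 of 16 members higher and 1 lower. Through 1 h alone the higher count was 8 and through 4 h alone it was 7. Btc, betacellulin, had 129, 283 and 364 CPM at 8 h, against 0, 0.374 and 2.2 CPM at 0 h, and Ereg, epiregulin, had 3.08, 145 and 349 CPM at 8 h, against 0, 0.316 and 1.16 CPM at 0 h. Areg, amphiregulin, had 9.31, 30.8 and 78.1 CPM at 8 h, against 0, 0.311 and 2.32 CPM at 0 h. Every 8 h follicle lay above the 0 h range for all 3 ligands. In the main model they were lower than at 4 h, with log2 changes of -2.87 ± 0.39, -2.74 ± 0.54 and -3.79 ± 0.57. That step crosses plates, and the 3 batch 2 follicles at 4 h had 1624, 205 and 229 CPM of Btc. For Ereg they had 596, 29.7 and 61.0 CPM. With a term for the 3 library sets 3 of the 16 members were lower and 2 higher at 8 h than at 4 h. Calls of the single ligands under that term are not given here. The change in Areg was 5.32 ± 1.22 (adjusted p = 0.000381), but 7.45 through 1 h and 2.43 through 4 h, and the route through 4 h alone did not pass the threshold (adjusted p = 0.0726). Hbegf went the other way from its family, with 0, 0.386 and 1.38 CPM at 8 h, against 7.71, 15.3 and 21.3 CPM at 0 h (-5.23 ± 0.59, adjusted p = 4.43e-10). The ERK phosphatases Dusp4 (5.45 ± 0.65) and Dusp6 (1.74 ± 0.36) and the ERK pathway inhibitors Spry2 (2.01 ± 0.51) and Spred2 (2.94 ± 0.59) were all called higher.

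Genes of cyclic AMP signaling split. Rgs2, which limits G protein signaling, had 276, 852 and 1272 CPM at 8 h, against 13.6, 27.5 and 34.5 CPM at 0 h (4.95 ± 0.42, adjusted p = 1.65e-13), and its medians were 1129.5, 619 and 852 CPM at 1 h, 4 h and 8 h. The phosphodiesterase Pde4b (2.77 ± 0.72), the repressor Crem (2.03 ± 0.56) and the kinase Sik1 (2.82 ± 0.63) were higher too. The adenylate cyclase Adcy9 (-4.10 ± 0.58) and the kinase subunit Prkar2b (-3.24 ± 0.52) were lower, with no overlap between the groups. In all 5 of 10 members were higher and 4 lower, against 21.7% and 23.9% of all tested genes.

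The cumulus matrix genes were the list with the highest median change, 4.18, with 6 of 10 members higher and 2 lower. Tnfaip6, which transfers heavy chains onto hyaluronan, had 118, 272 and 455 CPM at 8 h, against 0.299, 0.731 and 1.65 CPM at 0 h (8.25 ± 0.96, adjusted p = 1.25e-09). Ptx3, which cross-links those chains, had 9.41, 56.8 and 139 CPM at 8 h, against 1 count in the 9 follicles at 0 h. The direct ratio of summed counts per depth, which holds time and batch together, was 1430.5 (95% interval 256 to 56546) with counting error only, and the linked log2 fold change was 8.97 ± 0.99. Both were above the 0 h range in every follicle, Tnfaip6 after a log2 change of -2.33 ± 0.49 from 4 h and Ptx3 with no call between 4 h and 8 h. With a term for the 3 library sets 0 of the 10 members were called between 4 h and 8 h. At 4 h the batch 2 follicles had 1847, 110 and 41.3 CPM of Tnfaip6. Has2, the hyaluronan synthase, had 0.752, 15.8 and 65.6 CPM at 8 h, against 0, 0.428 and 4.94 CPM at 0 h, and its groups overlapped (3.46 ± 0.77, adjusted p = 0.000266). The hyaluronan receptor Cd44 (6.82 ± 0.60) and the proteoglycan Vcan (4.90 ± 0.66) were higher, and Itih5 (-2.46 ± 0.52) and Bcan (-2.70 ± 0.68) were lower.

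Prostaglandin genes pointed in several directions. Ptgs2, the inducible cyclooxygenase, had 17.8, 129 and 337 CPM at 8 h, against 0, 0 and 0.932 CPM at 0 h (8.84 ± 0.98, adjusted p = 3.77e-10). The median at 4 h was 2563 CPM, and the log2 change from 4 h to 8 h was -4.21 ± 0.49. That step crosses plates, and with a term for the 3 library sets the change was not called. The 3 batch 2 follicles at 4 h had 3981, 100 and 86.4 CPM. Hpgd, which breaks prostaglandins down, had 0, 1.16 and 2.76 CPM at 8 h, against 28.4, 93.8 and 184 CPM at 0 h (-6.79 ± 0.65), and Ptges, the synthase that makes prostaglandin E, had 7.9, 17.8 and 28.9 CPM at 8 h, against 100.0, 144 and 174 CPM at 0 h (-3.02 ± 0.30). Neither overlapped between the groups. The receptor Ptger4 (2.79 ± 0.65), the phospholipase Pla2g4a (1.75 ± 0.43) and the transporter Slco2a1 (2.25 ± 0.72) were higher.

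For the progesterone receptor itself the call depended on the fit. Pgr had 0, 2.49 and 5.08 CPM at 8 h, against 0, 0.374 and 1.55 CPM at 0 h (1.49 ± 1.19, adjusted p = 0.313, not called), after a median of 75.3 CPM at 4 h. It was called higher with the term for the 3 library sets (4.77, adjusted p = 0.0239) and by DESeq2 (3.27, adjusted p = 0.0169). Of the receptor and the genes linked to it in ovulation, 7 of 13 were higher and 2 lower, and 4 were higher through 1 h alone. Runx1 had 121, 269.9 and 449 CPM at 8 h, against 0.299, 1.46 and 2.8 CPM at 0 h (7.47 ± 0.52), and Runx2, a transcription factor of the same family, had 48.9, 80.0 and 168 CPM at 8 h, against 0, 1.12 and 1.65 CPM at 0 h (6.84 ± 0.55). The 2 genes stood clear of the 0 h range. Runx2 was higher at 8 h than at 4 h (2.24 ± 0.27, adjusted p = 4.87e-09) and Runx1 was not called (-0.19 ± 0.26). Prkg2, a cyclic GMP-dependent kinase, was higher (6.32 ± 0.84) with 4 counts in all 0 h follicles, and its call was lost through 1 h alone. Pparg, a lipid-sensing nuclear receptor, had 1.38, 6.47 and 21.4 CPM at 8 h, against 60.7, 84.8 and 201 CPM at 0 h (-3.85 ± 0.54). At 4 h it had a median of 116 CPM and was not called (0.33 ± 0.40).

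Among proteases and their inhibitors, 10 of 16 were higher and 2 lower. Adamts1, a protease that cleaves versican, had 105, 1016 and 3228 CPM at 8 h, against 51.6, 65.9 and 82.9 CPM at 0 h (4.14 ± 0.61, adjusted p = 2.26e-07), and its size differed by route, 4.99 through 1 h and 2.67 through 4 h. Timp1, an inhibitor of metalloproteases, had 178, 421 and 1283 CPM at 8 h, against 2.99, 4.71 and 9.95 CPM at 0 h (6.39 ± 0.53), and was higher than at 4 h (1.48 ± 0.30). The urokinase gene Plau (5.80 ± 0.42) and the protease gene Adamts4 (4.73 ± 0.81) also rose. Adamts5 (-3.14 ± 0.41) and the serpin Serpina5 (-4.13 ± 0.81) fell, with no overlap between the groups. Tissue factor, F3, which starts coagulation, had 18.9, 139 and 201 CPM at 8 h, against 0, 1.28 and 8.12 CPM at 0 h (5.81 ± 0.62, adjusted p = 1.42e-10). Its log2 change since 4 h was -3.72 ± 0.39. With a term for the 3 library sets 0 of the 16 members, F3 included, were lower at 8 h than at 4 h and 1 was higher.

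The letters upstream of these genes were read for motifs known from ovulation. RefSeq's promoter table (GRCm38.p6) had exactly 1 start for 5188 of the 8835 tested genes, and the 250 bases before it were searched on both strands. The AP-1 letters TGANTCA were in 8.42% of the 273 promoters of genes that rose 4-fold or more, in 3.26% of the 429 of genes that fell 4-fold or more and in 3.68% of all. The cyclic AMP response element TGACGTCA was in 2.56% of those that rose, 2.1% of those that fell and 3.16% of all. For the RUNX letters TGTGGTT the shares were 3.66%, 2.1% and 2.74%, for the steroidogenic factor letters CAAGGTCA 0%, 1.17% and 0.636%, and for the E box CACGTG 4.4%, 7.69% and 8.71%. For the sterol element TCACNCCAC they were 1.47%, 0.932% and 0.964%. Of 15 promoters of tested sterol synthesis genes, 1 held that element, that of Hmgcs1. These shares describe letters, and no set was tested. The 4 promoters below were chosen to show such a match in a gene of each kind, with the motif in capitals: the cyclic AMP element in Areg (chr5:91139349-91139598, plus strand), AP-1 letters in Tnfaip6 (chr2:52037863-52038112, plus strand) and at 2 places in F3 (chr3:121723287-121723536, plus strand), and the sterol element in Hmgcs1 (chr13:119690101-119690350, plus strand), whose values follow with the sterol genes. Each is read 5′ to 3′ and ends at the last base before the start.
Areg: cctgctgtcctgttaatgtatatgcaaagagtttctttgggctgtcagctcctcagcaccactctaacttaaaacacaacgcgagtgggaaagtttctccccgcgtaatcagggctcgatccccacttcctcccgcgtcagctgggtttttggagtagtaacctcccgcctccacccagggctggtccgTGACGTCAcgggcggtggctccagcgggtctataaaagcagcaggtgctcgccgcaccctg
Tnfaip6: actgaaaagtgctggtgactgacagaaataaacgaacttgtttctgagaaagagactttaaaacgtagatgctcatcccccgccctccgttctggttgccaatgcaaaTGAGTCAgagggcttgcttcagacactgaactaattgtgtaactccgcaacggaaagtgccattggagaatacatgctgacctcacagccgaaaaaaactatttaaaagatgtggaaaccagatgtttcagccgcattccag
F3: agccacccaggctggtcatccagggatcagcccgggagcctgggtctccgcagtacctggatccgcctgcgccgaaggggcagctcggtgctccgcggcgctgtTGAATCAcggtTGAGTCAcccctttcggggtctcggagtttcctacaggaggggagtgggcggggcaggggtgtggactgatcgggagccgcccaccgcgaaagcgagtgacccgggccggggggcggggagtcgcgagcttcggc
Hmgcs1: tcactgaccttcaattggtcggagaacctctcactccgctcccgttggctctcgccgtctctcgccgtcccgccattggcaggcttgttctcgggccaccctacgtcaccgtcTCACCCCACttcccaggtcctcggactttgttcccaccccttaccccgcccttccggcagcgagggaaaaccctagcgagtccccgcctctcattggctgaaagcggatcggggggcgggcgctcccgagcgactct

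Inflammatory genes, which ovulation shares with tissue injury, were higher without exception among those called: 13 of 17 were higher and 0 lower, with a median of 1.52. The count was 10 through 1 h alone and 6 through 4 h alone. Against 4 h 11 of the 17 were lower and 3 higher at 8 h. With a term for the 3 library sets 2 were lower and 2 higher, against 9.70% and 6.33% of all genes. Spp1 is among the higher members. Cxcl1, a neutrophil chemokine, had 24.1, 42.7 and 78.6 CPM at 8 h, against 0, 0.549 and 20.9 CPM at 0 h, after a median of 3056 CPM at 4 h. Its ranges did not overlap (3.89 ± 0.72, adjusted p = 1.86e-05), and the route mattered, 4.85 through 1 h and 2.13 through 4 h. The NF-kappa B genes Nfkb2 (2.57 ± 0.40) and Relb (1.52 ± 0.34), the adhesion gene Icam1 (1.90 ± 0.49) and the cytokine feedback gene Socs3 (2.88 ± 0.75) were higher.

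**Figure D2:**
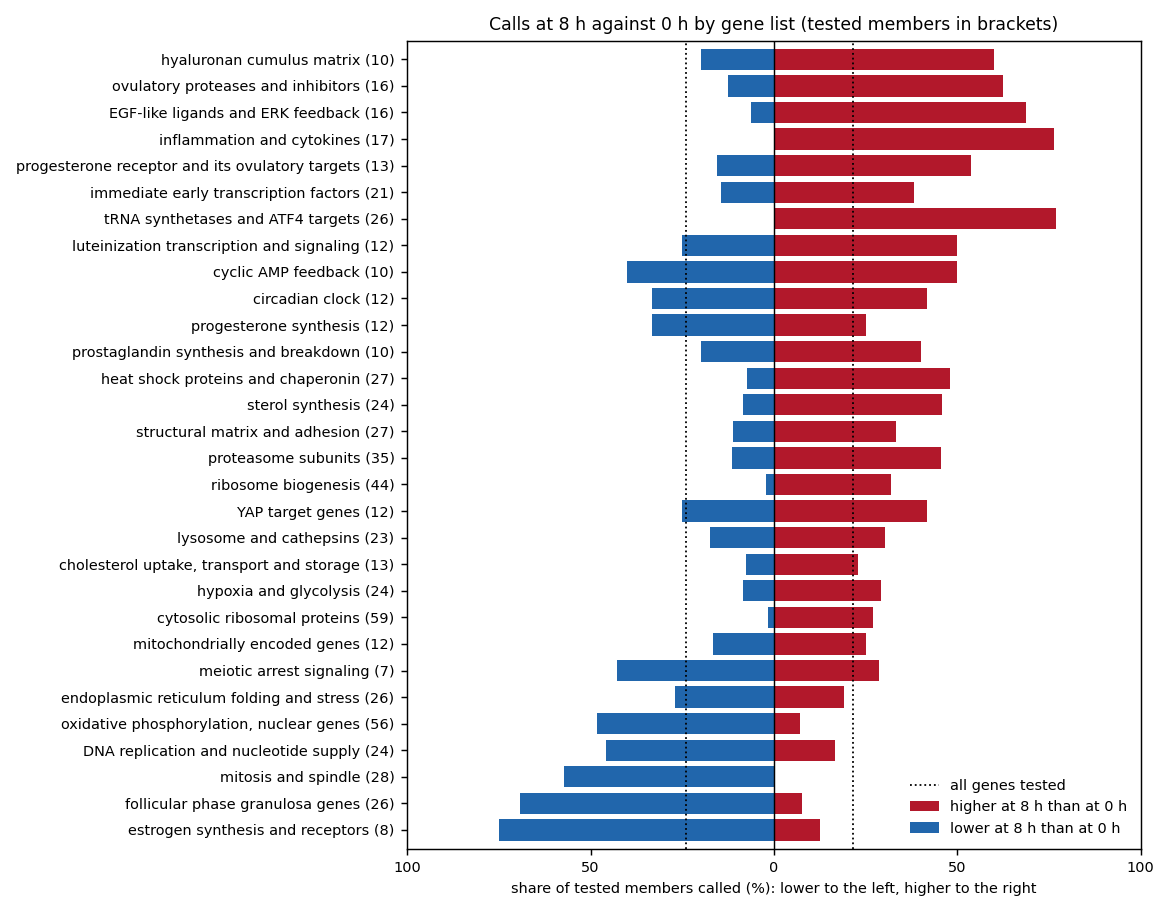
Share of the tested members of 30 gene lists that were called higher (right) or lower (left) at 8 h than at 0 h, ordered by median change, with the number tested in brackets and the shares over all tested genes, 21.7% and 23.9%, as dotted lines. Inflammation genes and tRNA synthetases have no lower member, and mitosis genes have no higher one. The lists were chosen with earlier results of these data known.

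Progesterone synthesis did not move as one. Star, which brings cholesterol into the mitochondrion, had 17, 213 and 1443 CPM at 8 h, against 1.9, 3.85 and 14.2 CPM at 0 h (6.08 ± 0.85, adjusted p = 9.23e-08). Fdx1, ferredoxin, the electron donor of the side-chain cleavage enzyme, had 670.0, 1146 and 1468 CPM at 8 h, against 63.7, 116 and 227 CPM at 0 h (3.12 ± 0.38). Both stood clear of the 0 h range and both were lower than at 4 h. The side-chain cleavage enzyme itself, Cyp11a1, had 64.7, 339.9 and 1910.2 CPM at 8 h, against 80.2, 171 and 409 CPM at 0 h, and its overlapping groups were not called (1.40 ± 0.77, adjusted p = 0.132). Hsd3b1, which makes progesterone from pregnenolone, had 1443, 4989.8 and 7346 CPM at 8 h, against 4842, 11192 and 16508 CPM at 0 h (-1.29 ± 0.48, adjusted p = 0.0241), a call lost through 1 h alone. The cytochrome b5 gene Cyb5a had 97.8, 124 and 217 CPM at 8 h, against 980.0, 2003 and 2460.5 CPM at 0 h (-3.65 ± 0.36), and the nuclear receptors Nr5a2 (-2.29 ± 0.33) and Nr5a1 (-2.09 ± 0.36), which drive steroidogenic genes, were lower. In all, 3 of 12 were higher, 4 lower and 5 not called, against 21.7% higher and 23.9% lower over all tested genes.

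Of the genes tied to luteinization, 6 of 12 were higher and 3 lower. Besides both Runx genes, Cdkn1a, which halts the cell cycle, had 199, 288 and 471 CPM at 8 h, against 16.4, 42.4 and 88.2 CPM at 0 h (2.62 ± 0.41, adjusted p = 9.76e-07). The Wnt antagonist Sfrp4 (5.17 ± 0.91) and Wnt4 (3.29 ± 0.65) were also higher. The receptor for hCG, Lhcgr, had 0, 5.51 and 25.6 CPM at 8 h, against 11, 118 and 336 CPM at 0 h, with overlap between the groups (-3.44 ± 0.94, adjusted p = 0.00265). Gata6 was lower in the linked model (-1.40 ± 0.51), with -4.29 through 1 h and -0.29 through 4 h, and through 4 h alone it was not called. Cebpb was under the filter on low counts.

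Estrogen synthesis was down. Cyp19a1, aromatase, had 5.87, 28.9 and 49.6 CPM at 8 h, against 85.5, 171 and 229 CPM at 0 h (-2.57 ± 0.53, adjusted p = 0.000106). Hsd17b1, which makes estradiol from estrone, had 3.48, 17.6 and 57.5 CPM at 8 h, against 440.0, 1405 and 1914 CPM at 0 h (-5.86 ± 0.67), and the estrogen receptor Esr2 had 2.93, 7.52 and 27.4 CPM at 8 h, against 232, 306 and 357 CPM at 0 h (-4.78 ± 0.53). None of the 3 overlapped between the groups, and 6 of 8 list members were lower. The 1 member that rose was Sult1e1, described above, whose product removes active estrogen.

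Genes of sterol synthesis were higher at 8 h than at 4 h for most members, and higher than at 0 h for some. At 8 h 11 of 24 were higher than at 0 h and 2 lower, with a median of 0.58, and 11 were not called, whereas at 4 h 3 were higher and 13 lower, with a median of -0.99. Between 4 h and 8 h, 22 of the 24 rose and 0 fell, and with a term for the 3 library sets 15 rose and 0 fell. Through 4 h alone 5 of the 24 were higher than at 0 h, against 16.6% of all genes by that route. The per-follicle means of the list overlapped, at 0.19 to 1.03 at 8 h, against -0.58 to 0.36 at 0 h on the log2 scale. Srebf2, the transcription factor that senses low sterol, had 206, 251 and 302 CPM at 8 h, against 48.2, 53.1 and 81.6 CPM at 0 h (2.01 ± 0.25, adjusted p = 4.59e-09). Its groups did not overlap. Hmgcs1, an early enzyme of the pathway whose promoter is printed above, rose by 1.12 ± 0.32 over 0 h and by 1.15 over 4 h. Cyp51 (1.61 ± 0.33), Insig1 (1.43 ± 0.31) and Sqle (0.96 ± 0.28) were higher than at 0 h, and Lss rose by 2.45 from 4 h. The 2 lower members, Ebp (-2.03 ± 0.57) and Fdft1 (-0.83 ± 0.30), lost their calls through 1 h alone. For Ebp the routes gave -0.89 through 1 h and -4.75 through 4 h, which differed.

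Of 13 genes of cholesterol uptake, transport and storage, 3 were higher and 1 lower. The higher count is close to the 21.7% of all tested genes, and the lower count is below their 23.9%. Scarb1, the receptor for high-density lipoprotein, had 602, 849 and 1137 CPM at 8 h, against 80.7, 221 and 359 CPM at 0 h (2.02 ± 0.29, adjusted p = 1.95e-07). Plin2, which coats lipid droplets, had 15.2, 26.7 and 71.9 CPM at 8 h, against 0.731, 4.79 and 17.6 CPM at 0 h (1.94 ± 0.58), with overlap, and was not called through 1 h alone. Nceh1, a cholesterol ester hydrolase, had 3.85, 6.47 and 11.9 CPM at 8 h, against 54.1, 90.7 and 124 CPM at 0 h (-3.77 ± 0.33). Scarb1 and Nceh1 did not overlap between the groups.

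Glycolytic and hypoxia-responsive genes were also low at 4 h and higher again at 8 h. At 1 h 10 of 24 were lower than at 0 h and 1 higher, and at 4 h 13 were lower and 4 higher. At 8 h 2 were lower and 7 higher, with a median of 0.23. Over all tested genes 23.9% were lower and 21.7% higher at 8 h. From 4 h to 8 h 19 rose and 1 fell, or 9 and 0 with a term for the 3 library sets. Through 4 h alone 4 members were higher than at 0 h, against 16.6% of all genes by that route. The per-follicle means of the list overlapped, at -1.15 to 1.04 at 8 h, against -0.28 to 0.30 at 0 h on the log2 scale. Slc2a1, a glucose transporter, had 33.9, 111 and 211 CPM at 8 h, against 6.18, 12 and 26.9 CPM at 0 h (2.92 ± 0.45, adjusted p = 5.43e-07), and Egln3, an oxygen-sensing hydroxylase, had 6.94, 20.7 and 30.2 CPM at 8 h, against 0, 0.949 and 4.94 CPM at 0 h (3.42 ± 0.71). Neither overlapped. Hexokinase 2, Hk2, was also higher (1.94 ± 0.52). The mitophagy gene Bnip3 remained below its start, with 13.9, 321 and 680.0 CPM at 8 h, against 2039.9, 2639.9 and 5534 CPM at 0 h (-3.27 ± 0.75), although it had risen by 2.86 ± 0.47 from its 4 h level. Ldha (0.01 ± 0.31, adjusted p = 0.979) and Pgk1 (0.21 ± 0.40, adjusted p = 0.695) were not called against 0 h. Vegfa was under the filter on low counts.

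**Figure D3:**
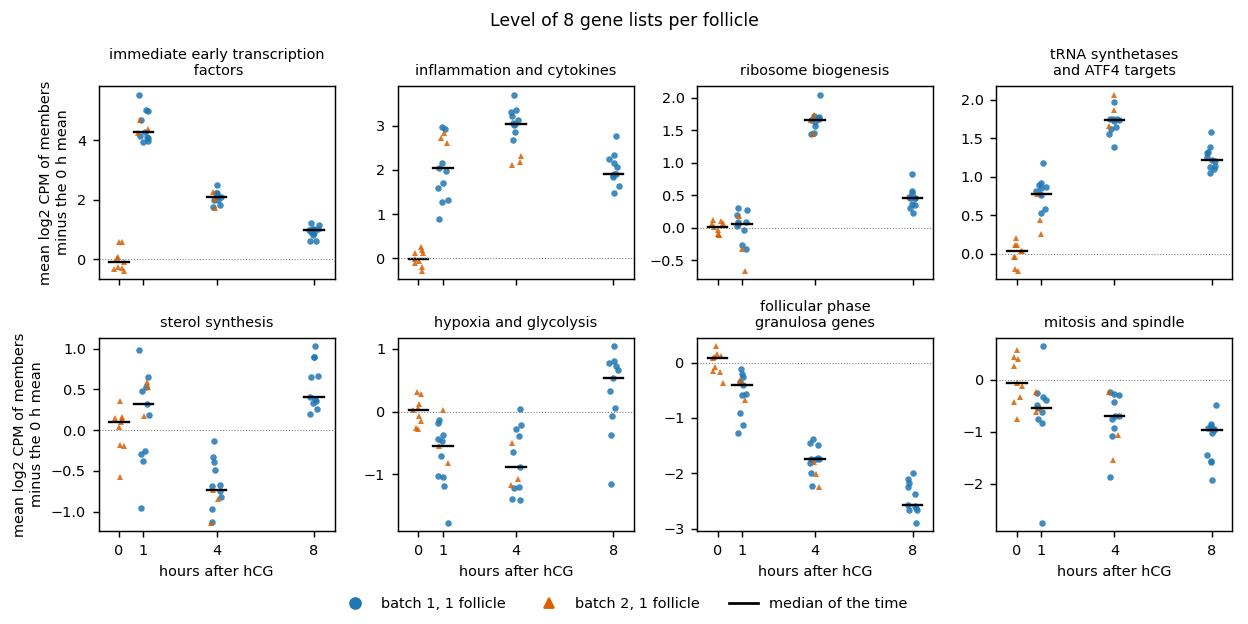
Mean log2 CPM of the tested members of 8 gene lists in every follicle, minus the mean of the 0 h follicles, by hours after hCG; circles are batch 1, triangles batch 2, and bars mark medians. Immediate early genes peak at 1 h and ribosome biogenesis at 4 h, sterol synthesis and glycolysis have their lowest medians at 4 h, and follicular phase granulosa genes stand at a median of -2.57 at 8 h.

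Genes of granulosa cells in the growing, follicular phase were low, with 18 of 26 members lower, 2 higher and a median log2 fold change of -2.36. In the per-follicle mean of the list, 8 h follicles ran from -2.89 to -1.99 on the log2 scale, against -0.36 to 0.29 for 0 h follicles, so the groups were well apart. Fshr, the receptor for follicle-stimulating hormone, had 0, 2.49 and 6.64 CPM at 8 h, against 80.2, 138 and 320.2 CPM at 0 h (-5.97 ± 0.55, adjusted p = 1.69e-12). Foxo1, a transcription factor of growing granulosa cells, had 8.25, 11.3 and 27.1 CPM at 8 h, against 450.2, 523 and 683 CPM at 0 h (-5.36 ± 0.39). Inhba, the beta A subunit of inhibin and activin, had 394, 1107 and 1832 CPM at 8 h, against 5936, 10423 and 12159 CPM at 0 h (-3.16 ± 0.58). These 3 genes did not overlap. Foxo1 was down at 1 h (-2.01 ± 0.33), Fshr chiefly by 4 h (-4.37 ± 0.46), and Inhba was not called at 4 h and had a log2 change of -2.71 ± 0.38 from 4 h to 8 h. Bmpr1b, a receptor for oocyte factors (-4.17 ± 0.33), the gap junction gene Gja1 (-2.23 ± 0.22), the activin-binding gene Fst (-2.10 ± 0.52) and Ccnd2, a cyclin of dividing granulosa cells (-3.09 ± 0.45), were lower too. The 2 members that rose were Id2 (2.66 ± 0.45), an inhibitor of differentiation factors, and Smad3 (0.98 ± 0.29), whose call was lost through 1 h alone. Amh had no count in the 6 linking libraries and was left out.

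Cyclic GMP from the pair Nppc and Npr2, a peptide and its receptor guanylate cyclase, holds the oocyte in meiotic arrest. Nppc had 0, 2.7 and 6.02 CPM at 8 h, against 35.7, 96.4 and 146 CPM at 0 h (-4.99 ± 0.59, adjusted p = 1.86e-09), and Npr2 had 2.2, 4.31 and 11 CPM at 8 h, against 55.5, 103 and 125 CPM at 0 h (-4.29 ± 0.33, adjusted p = 5.04e-15). Both were below the 0 h range in every follicle. Npr2 was not called at 1 h (0.06 ± 0.25), had changed by -1.48 ± 0.26 at 4 h and by a further -2.81 ± 0.23 between 4 h and 8 h. Of the 7 tested genes of this signal 3 were lower and 2 higher, against 23.9% and 21.7% of all tested genes. The higher ones, Prkg2 and Gnas, lost their calls through 1 h alone and with a term for the 3 library sets.

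Of 28 tested mitosis and spindle genes 16 were lower and 0 higher at 8 h, with a median of -1.28, against 9 lower at 4 h (27.7% of all genes), and through 1 h alone 8 of 28 were lower, against 25.0% of all genes by that route. Ccnb2, a mitotic cyclin, had 0, 3.85 and 7.59 CPM at 8 h, against 24.7, 49 and 90.8 CPM at 0 h (-3.66 ± 0.51, adjusted p = 7.16e-08), and did not overlap. The proliferation marker Mki67 (-2.58 ± 0.56), the topoisomerase Top2a (-2.34 ± 0.54) and the spindle protein Nusap1 (-2.95 ± 0.63) were lower. In DNA replication and nucleotide supply, 11 of 24 were lower, among them the flap endonuclease Fen1 (-3.71 ± 0.62) and the helicase subunit Mcm3 (-2.34 ± 0.49). The 4 higher members included Pola2 (1.43 ± 0.30), a subunit of the polymerase that primes synthesis, and the reductase subunit Rrm1 (1.19 ± 0.31).

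Of 56 nuclear genes of oxidative phosphorylation, 27 were lower, 4 higher and 25 not called, with a median of -0.47. With a term for the 3 library sets 15 of the 56 were lower, against 22.5% of all genes. Ndufa6, a subunit of complex I, had 39.9, 52.1 and 70.7 CPM at 8 h, against 142, 164 and 233 CPM at 0 h (-1.72 ± 0.19, adjusted p = 4.39e-10), with no overlap. Ndufs4, of the same complex, was lower by a like amount (-1.67 ± 0.35). ATP synthase genes were among the exceptions, with Atp5g1 (0.86 ± 0.21) and Atp5b (0.72 ± 0.21) higher, though Atp5b was not called through 4 h alone. The mitochondrial genome gave no single direction: of 12 of its genes 3 were higher and 2 lower in the linked model, but 0 and 5 through 1 h alone and 5 and 0 through 4 h alone, and the routes differed for 6. For mt-Cytb the log2 fold change was 0.51 ± 0.20 in the linked model, -0.26 through 1 h and 1.05 through 4 h.

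Ribosome biogenesis genes stood highest at 4 h. Of 44 ribosome biogenesis genes, 40 were higher at 4 h, with a median of 1.77, and 14 were higher at 8 h, with a median of 0.39. From 4 h to 8 h 39 fell and 0 rose, or 22 and 0 with a term for the 3 library sets. Mybbp1a, a nucleolar regulator, had 112, 143 and 231 CPM at 8 h, against 13.7, 42 and 55.6 CPM at 0 h (1.86 ± 0.26, adjusted p = 6.82e-08), still clear of the 0 h range but below the 4 h median of 336 CPM. Cytosolic ribosomal proteins had 16 of 59 higher and 1 lower in the linked model, against 5 and 7 through 1 h alone, so no direction is given for the family.

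Amino acid supply genes were still raised, below their 4 h level for most. Of 26 tRNA synthetases and targets of ATF4, the factor of the amino acid response, 20 were higher and 0 lower, with a median of 1.02, and 11 were higher through 1 h alone. From 4 h to 8 h 14 fell and 4 rose, or 13 and 2 with a term for the 3 library sets. Slc7a11, the cystine importer, had 337, 400.3 and 636 CPM at 8 h, against 10.4, 58.4 and 79.6 CPM at 0 h (2.94 ± 0.31, adjusted p = 5.49e-11), and Phgdh, the first enzyme of serine synthesis, had 81.4, 142 and 299 CPM at 8 h, against 5.39, 19.7 and 28.6 CPM at 0 h (3.11 ± 0.36). Neither overlapped, and both rose further from 4 h, by 0.91 ± 0.19 and 0.88 ± 0.22.

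Proteasome and chaperone genes had more members higher than lower. Proteasome subunits had 16 of 35 higher and 4 lower, against 21.7% and 23.9% of all tested genes. The maturation factor Pomp had 96.8, 105 and 125 CPM at 8 h, against 29.8, 33.8 and 38.8 CPM at 0 h (1.60 ± 0.19, adjusted p = 1.98e-09), and the regulatory subunit Psmd2 rose by 1.31 ± 0.21, while the core subunit Psma2 fell (-1.70 ± 0.24). Heat shock proteins and the chaperonin had 13 of 27 higher and 2 lower, with a rise in Hspa4l (2.01 ± 0.30) and the chaperonin subunit Cct5 (1.43 ± 0.18) and a fall in Hspa1a (-4.09 ± 0.97) and Dnajb4 (-1.55 ± 0.38). In the endoplasmic reticulum, 5 of 26 were higher and 7 lower, close to the background shares. Derl1, of the export channel for misfolded proteins, had 332, 443 and 589.9 CPM at 8 h, against 57.1, 92.7 and 122 CPM at 0 h (2.28 ± 0.22). Herpud1, which helps to degrade such proteins, had 4.65, 10.1 and 12.9 CPM at 8 h, against 61, 121 and 141 CPM at 0 h (-3.62 ± 0.35), having peaked at a median of 369 CPM at 1 h.

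Matrix and adhesion genes had 9 of 27 higher and 3 lower, against 21.7% and 23.9% of all tested genes. Besides Sdc1, the integrin gene Itgav had 243, 555 and 842 CPM at 8 h, against 9.42, 18.3 and 62.6 CPM at 0 h (4.54 ± 0.43, adjusted p = 4.54e-12), 5.27 through 1 h and 3.55 through 4 h. The laminin gene Lama4 was lower (-2.18 ± 0.56). Targets of YAP, a coactivator that reads cell tension, had 5 of 12 higher and 3 lower, the lower count close to the share over all genes. Axl, a receptor kinase, had 396, 485 and 654 CPM at 8 h, against 47.3, 61.2 and 101 CPM at 0 h (2.91 ± 0.29, adjusted p = 1.36e-11), and was higher than at 4 h (1.88 ± 0.19). Ctgf, a matricellular protein, was lower with overlapping groups, and had 5.78, 31.5 and 163 CPM at 8 h, against 89.5, 156 and 227 CPM at 0 h (-1.85 ± 0.53), after a median of 656 CPM at 4 h, and its call was lost with a term for the 3 library sets (-1.59, adjusted p = 0.0518). Cyr61, of the same family, was lower (-1.31 ± 0.48) and was not called through 4 h alone.

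Lysosome genes had 7 of 23 higher and 4 lower, against 21.7% and 23.9% of all tested genes. The membrane protein Cd63 had 682, 941 and 1105 CPM at 8 h, against 103, 148 and 224 CPM at 0 h (2.64 ± 0.19, adjusted p = 4.91e-16). The protease Lgmn rose by 2.11 ± 0.32, while the cathepsin Ctsh fell (-2.09 ± 0.41). Of 12 circadian clock genes 5 were higher and 4 lower, against the same shares. The repressor Bhlhe40 had 51.7, 374 and 592 CPM at 8 h, against 4.14, 6.58 and 13 CPM at 0 h (5.37 ± 0.54, adjusted p = 1.78e-11), with 6.39 through 1 h and 4.15 through 4 h. The repressor Nfil3 was higher (4.22 ± 0.63), and Per3 (-3.84 ± 0.71) and Tef (-2.40 ± 0.51) were lower, Tef without a call through 4 h alone.

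Granulosa markers, and some theca and stroma markers, were lower. In bulk follicles, fewer cells of a type and less RNA per cell cannot be told apart. All 9 tested granulosa markers were lower at 8 h, and their summed level was 9374 to 19256 CPM at 8 h, against 19330 to 55696 CPM at 0 h. Each of these markers is also in the follicular phase or estrogen list above, so this count repeats genes already given. Theca and stroma markers summed to 60.9 to 2938 CPM at 8 h, against 350.4 to 2262 CPM at 0 h, with 4 of 10 lower, among them Cyp17a1, the androgen-making enzyme of theca cells (-5.06 ± 0.99), and Insl3 (-5.04 ± 0.99). Smooth muscle markers summed to 63.9 to 431.4 CPM at 8 h, against 34.7 to 476.8 CPM at 0 h, with 1 of 4 lower. Oocyte markers summed to 16.2 to 75.1 CPM at 8 h, against 13.1 to 79.7 CPM at 0 h, and of 5 tested none was called, with 1 of the 16 members at 0 counts in each group. Endothelial markers summed to 12.2 to 40.3 CPM at 8 h, against 11.1 to 47.6 CPM at 0 h, and leukocyte markers to at most 65.3 CPM at 8 h, against 174.4 CPM at 0 h. Surface epithelium markers summed to 11.5 to 66.2 CPM at 8 h, against 3 to 19.3 CPM at 0 h, with Krt18 higher (2.54 ± 0.91) but not through 4 h alone. The part of these cell types in the changes above was not tested.

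The routes through 1 h and 4 h are set side by side for the named genes. Of 127 named genes that could be fitted by both, 126 had the same sign, which the choice of leading genes partly required, and 15 differed significantly between the routes. Some list counts moved by more than 1.5 times with the route or with the term for the 3 library sets. They show how calls depend on the fit, and several lie near the shares over all genes. By the 1 h route 15.4% of all genes were higher and 25.0% lower, and by the 4 h route 16.6% and 18.4%. With the term for the 3 library sets 17.0% were higher and 22.5% lower. Through 1 h alone 2 cyclic AMP, 2 EGF, 2 cholesterol transport and 1 hypoxia members were lower, and 5 progesterone synthesis, 4 lysosome, 3 clock, 3 endoplasmic reticulum and 2 estrogen members were higher. Through 4 h alone 6 DNA replication members were lower, as was 1 member each of the luteinization, clock, proteasome, matrix and adhesion, progesterone receptor, hypoxia and heat shock lists and 0 of the cytosolic ribosomal proteins, and 4 hypoxia and 2 oxidative phosphorylation members were higher. With a term for the 3 library sets 6 cytosolic ribosomal proteins were higher and 3 lower, 4 mitochondrially encoded genes were lower and 0 higher, 13 members of the tRNA synthetase and ATF4 list were higher, and 2 ribosome biogenesis and 8 mitosis members were lower. In the authors' deposited table of 8 h against 0 h, 4021 of the 4024 called genes were listed and all 4021 had the same direction as in the linked model, though that table was made from the same follicles. For Spp1 the authors' deposited table gave a fold change of 5677, and for Inhbb it gave -309, where a negative sign marks a lower level at 8 h.

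**Figure D4:**
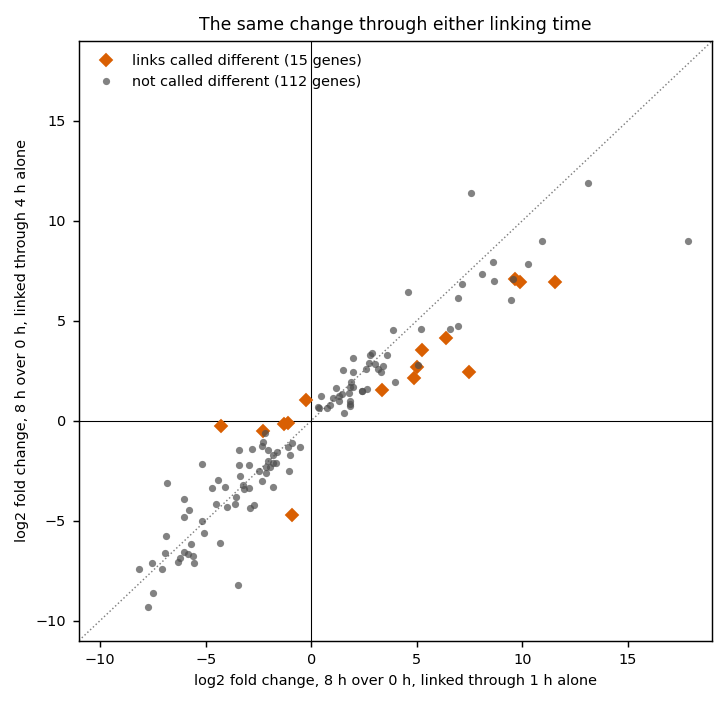
Log2 fold change of 8 h over 0 h for 127 named genes, linked through 1 h alone (horizontal axis) and through 4 h alone (vertical axis), with the line of equality dotted; diamonds mark the 15 genes whose routes differed. Areg, Btc and Hmga1 are diamonds with a larger rise through 1 h, and mt-Cytb, at -0.26 and 1.05, is the gene whose sign differs.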

How the data were processed

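Single follicles were sequenced with Smart-Seq2 and Nextera XT libraries, per the labels' protocols, which keep no strand. HISAT2, Partek, DESeq2 and GRCm38 are named in the submitters' processing notes, with no versions. The deposited counts per gene are whole numbers that the authors adjusted for batch with ComBat-seq, per the file's name, and the settings are not given in the sources used here. The deposited TPM values come from those adjusted counts, per the file's name, and entered alternatives only. The p-values and signed fold changes of the authors' deposited table were read for direction. Columns were matched to samples by their descriptions, and 10 columns matching no described sample were not used. The descriptions of 5 of the 9 libraries at 0 h end in _ds, whose meaning the labels do not give.

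One model of all 46 libraries was made with edgeR 4.0.16 under R 4.3.3 (filterByExpr, TMM, quasi-likelihood, time plus batch, Benjamini-Hochberg adjustment over 8835 genes, prior count 2). The biological coefficient of variation was 34.1%. The groups compared share replicate numbers in the labels, but over 9 pairs their deviations correlated between -0.11 and 0.03, so the numbers do not pair follicles. Alternatives used DESeq2 1.42.0 and limma 3.58.1. The fit was also run on simulated data, with an outcome not given here. Those data held no interaction of time and batch, so they cannot show how the fit does where the routes differ. Members and lists were chosen with earlier results of these data known. Named genes were the 12 largest called rises and 12 largest called falls at a mean log2 CPM of at least 3 with no provisional name and the same sign by either route and without the batch term, from every list at most 2 genes that rose and 2 that fell, and a fixed set of ovulation genes, 138 in all. Clone names beginning RP23 or RP24 were counted as provisional after they were seen. Other list members are named where they make up a count, and were chosen after their values were seen. Gene positions are from GENCODE M21.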

Additional observations from a re-analysis of the deposited data

Results flagged for a closer look

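Among the 9 follicles at 0 h, 13 of 134 named genes had 1 follicle set apart from the rest, with a gap of more than 0.493 of the range. Chance flags about 1 in 20 groups. Replicate 3 was the one apart for 9 of them. It was the highest for Ptger4, at 2.75 CPM with the next at 1.20, for Prkg2, at 2.20 with the others at 0, for Itgav, at 62.6 with the next at 24.5, and for Mylk, at 39.5 with the next at 10.6. It was the lowest for Cyb5a, at 980.0 CPM with the next at 1652, for Atp5b, at 334.0 with the next at 1072, for Psmd2, at 97.8 with the next at 177, for Sdf2l1, at 7.14 with the next at 22.4, and for Slc7a11, at 10.4 with the next at 31.7. Replicate 1 was the highest for Cxcl1, at 20.9 CPM with the next at 2.19, and for Areg, at 2.32 with the next at 0.731. Replicate 4 was the lowest for Pola2, at 18.3 CPM with the next at 24.8. Replicate 9 held the single count of Ptx3, 0.591 CPM.

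The linked change differed between the route through 1 h and the route through 4 h for 15 named genes, by edgeR's quasi-likelihood test of the interaction of time and batch. Given as the first route minus the second on the log2 scale, the difference was 5.13 for Areg, 4.61 for Btc, 3.72 for Ebp, 3.06 for Hmga1, 2.81 for Cxcl1, 2.67 for Ier3, 2.38 for Adamts1, 2.32 for Bhlhe40, 1.90 for Cdkn1a and 1.78 for Itgav. It was -3.86 for Gata6, -1.71 for mt-Nd3, -1.24 for mt-Cytb, -1.04 for Rpl10 and -0.92 for mt-Atp6. Each route rests on 3 follicles of batch 2, and the cause was not tested.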

How the results depend on the processing

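Of the counts of called genes, those for 8 h against 0 h stayed within 1.5 times of 4024 with RLE factors, no filter, batch left out of the model or replaced by the 3 library sets, either route alone, other rules for left-out genes, DESeq2 and limma on TPM. The higher genes alone numbered 1251 through 1 h, 3375 on log2(TPM + 1) and 3008 on log2(TPM + 0.1), where rises made up 65.7% of calls. With the term for the 3 library sets, 1416 genes were called between 8 h and 4 h, against 3582. With every library thinned to the smallest, which leaves 4052 genes tested, 567 genes were called for 8 h against 0 h (326 higher, 241 lower), 750 for 4 h against 0 h, 270 for 1 h against 0 h, 539 for 8 h against 4 h and 905 for 8 h against 1 h. With a replicate block, 848 were called for 8 h against 0 h (409 higher, 439 lower), 1457 for 4 h and 341 for 1 h against 0 h, and 235 genes differed by route. The replicate numbers do not pair follicles, and at 1 h and 4 h numbers up to 10 are all of batch 1. Without 1 follicle, each of the 6 linking follicles of batch 2 or 8 h replicate 4, the counts ran from 3687 to 3957 for 8 h against 0 h (1473 to 1887 higher, 1996 to 2363 lower), 4395 to 4784 for 4 h and 2378 to 2918 for 1 h against 0 h, 3523 to 3631 for 8 h against 4 h, and 4258 to 4386 for 8 h against 1 h, and without each linking follicle 283 to 436 for the routes. The other follicles were not left out one at a time. Without 0 h replicates 1 and 3 together 4230 genes were called for 8 h against 0 h (2234 higher, 1996 lower), and without the 5 libraries at 0 h marked _ds 3601 (1548 higher, 2053 lower). Reversed values were -0.17 for mt-Cytb with 3 library sets and -0.26 through 1 h alone, 0.19 for Cyr61 and -0.55 for Cyp11a1 with the replicate block, and 0.36 for Dnajb4 after thinning. The causes were not tested. Genes with few counts at 0 h are limited by counting error, and the link rests on 6 follicles. The smallest libraries were at 4 h and 1 h, with 241281 and 302553 counts kept, against at least 1264015 at 0 h.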
